A study of Mus musculus with 6 samples.

Results

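Transcript levels of 10 neutrophil genes were examined in colon tissue of BALB/c mice, an inbred albino strain. The genes were Camp, Ngp, Ltf, Mmp8 and Mmp9, which encode granule proteins, Retnlg, which encodes a small secreted protein, the receptors Cxcr2 and Csf3r, and the surface proteins Ly6g and Cd177. They were chosen by name as a neutrophil set and matched by gene symbol, and all 10 were found among the 30777 genes of the deposited table. The study asked which colon genes are associated with berberine in mice given 5-fluorouracil. In 3 libraries the mice had received 5-fluorouracil and, in addition, the plant alkaloid berberine (5-Fu+BBR). In the other 3 libraries they had received 5-fluorouracil alone (5-Fu), a chemotherapy drug that blocks thymidylate synthesis. All 6 libraries thus came from drug-treated animals, and an untreated colon was not analysed here. The labels give no dose, schedule, age or sex, and leave it unstated if each sample is its own animal. The p-values therefore reflect no more than the spread among these samples, which may be technical. Whole tissue was measured, in which the number of neutrophils, the RNA per neutrophil and transcripts of other cells cannot be told apart.

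Neutrophils are short-lived white blood cells that carry preformed granules of enzymes and antimicrobial proteins. Most granule transcripts are made while the cells mature in the bone marrow under granulocyte colony-stimulating factor, and transcription factors of the C/EBP family together with PU.1 drive many granule genes. Mature cells follow CXC chemokines through the receptor CXCR2, cross the vessel wall with the help of selectins and integrins, and release their granules in damaged or infected mucosa.

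The deposited counts summed to between 53824752 and 61820101 per library in 5-Fu+BBR and between 53970545 and 63831168 in 5-Fu. Levels are given as FPKM, which corrects for the length of the transcript and the depth of the library, where genes are compared with each other or summed. CPM, which corrects the counts for an adjusted library size and not for transcript length, is used mostly where libraries are compared. Sums and some single genes are compared between libraries in FPKM as well. Replicates 2 and 3 of 5-Fu+BBR stood apart from the rest in transcripts of kidney genes. The 8 kidney markers examined summed to 15.8, 152 and 146 FPKM in 5-Fu+BBR replicates 1 to 3 and to between 16.0 and 18.3 FPKM in the 5-Fu libraries. The part of this difference in the results that follow was not tested, and for the 10 genes the values of 5-Fu+BBR replicate 1 are given apart from those of replicates 2 and 3.

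None of the 10 genes passed an adjusted p under 0.05 in edgeR's quasi-likelihood test, which called 15 of the 20101 genes tested (0.0746%), 0.0597% of them as higher and 0.0149% as lower in 5-Fu+BBR. Without single libraries edgeR called between 0 and 145 genes higher and between 0 and 15 lower, the extremes being 0 without 5-Fu+BBR replicate 2 or 5-Fu replicate 1 and 145 higher without 5-Fu replicate 2. At an unadjusted p under 0.05 there were 4 of the 10, Camp, Mmp8 and Retnlg with lower and Cd177 with higher means in 5-Fu+BBR, where 15.6% of all genes tested lay past that limit, 6.08% with lower and 9.48% with higher values. DESeq2 called Camp and none of the other 9 genes, and it called 5.05% of the 21798 genes it tested. Without a filter on low counts edgeR also called Camp alone of the 10, with 0.25% of 30777 genes called, and limma-voom called 0 of the 10, with 0.0796% of all genes called. For 5 of the 10 genes fewer than 3 libraries of 5-Fu+BBR reached the level of the filter, namely Camp, Ngp, Mmp8, Cxcr2 and Retnlg. These passed the filter largely through their level in 5-Fu, so their p-values and the counts that include them are given as description.

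**Figure D1:**
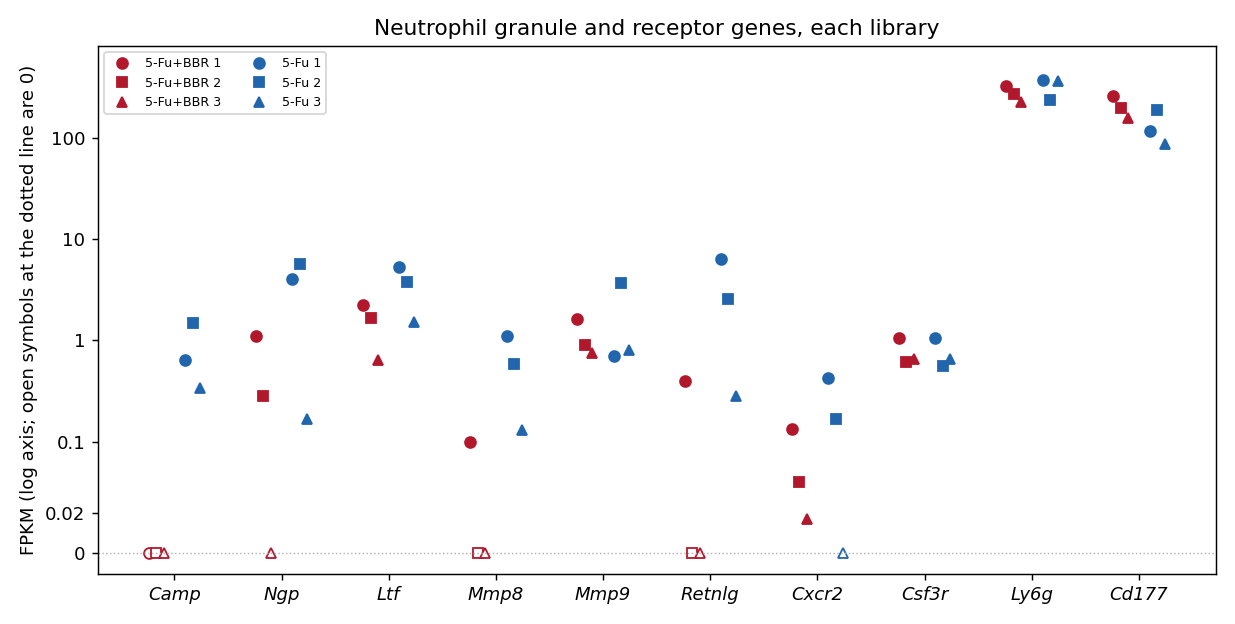
FPKM of the 10 genes on a log axis in each library, with 5-Fu+BBR in red to the left of 5-Fu in blue and a symbol for each replicate; open symbols stand for 0. Ly6g and Cd177 lie between 85.6 and 371 FPKM, the other 8 genes at or under 6.32 FPKM, and Camp is at 0 in the 3 libraries of 5-Fu+BBR.

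Camp encodes cathelicidin, the precursor of an antimicrobial peptide (ENSMUSG00000038357, GRCm38 chromosome 9, 109847379 to 109849617, minus strand). It had 0 counts in each of the 3 libraries of 5-Fu+BBR, against 32, 85 and 17 counts in 5-Fu replicates 1 to 3, or 0.638, 1.49 and 0.34 FPKM. The groups did not overlap, and Camp was among the lowest expressed of the 10 genes. With the 3 libraries together set at 12 counts, the limit that 0 allows, it was at least 10.9-fold lower in 5-Fu+BBR, a bound that covers counting error only and that was at least 6.53-fold without 5-Fu replicate 2 and at least 7.13-fold without 5-Fu+BBR replicate 1. The adjusted p was 0.098 with edgeR, 0.0476 with edgeR without a filter on low counts and 2.92e-05 with DESeq2, and over all alternatives it ran from 2.92e-05 to 0.633.

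Ngp encodes neutrophilic granule protein, a relative of cathelicidin stored in specific granules (ENSMUSG00000032484, chromosome 9, 110419747 to 110423012, plus strand). Its level was 1.67, 0.398 and 0 CPM in 5-Fu+BBR replicates 1 to 3, against 5.76, 7.81 and 0.276 CPM in 5-Fu replicates 1 to 3. Replicates 1 and 2 of 5-Fu were the high ones, and 5-Fu replicate 3 lay below the first 2 libraries of 5-Fu+BBR. The means were 0.691 ± 0.874 CPM in 5-Fu+BBR and 4.62 ± 3.9 CPM in 5-Fu (SD, n = 3 each), a log2 fold change of -2.73 ± 1.6 (SE) with an adjusted p of 0.479 by edgeR. It was -4.52 without 5-Fu+BBR replicate 1 and -1.48 with that library alone.

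Ltf encodes lactoferrin, an iron-binding protein of specific granules that mucosal glands also secrete (ENSMUSG00000032496, chromosome 9, 111019271 to 111042767, plus strand). It was at 9.57, 6.64 and 2.62 CPM in 5-Fu+BBR and at 21.4, 14.4 and 6.78 CPM in 5-Fu. With 145 or more counts in every library it was the best measured of the granule genes on chromosome 9. The groups overlapped, since 5-Fu+BBR replicate 1 lay above 5-Fu replicate 3. The log2 fold change was -1.18 ± 0.57 with an adjusted p of 0.379, and -0.58 with 5-Fu+BBR replicate 1 alone and -0.76 without 5-Fu replicate 1.

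Mmp8 encodes neutrophil collagenase (ENSMUSG00000005800, chromosome 9, 7558456 to 7568485, plus strand). It had 18, 0 and 0 counts in 5-Fu+BBR and 175, 107 and 21 counts in 5-Fu, or 0.304, 0 and 0 CPM against 3.15, 1.59 and 0.414 CPM. The groups did not overlap, although the gap between 5-Fu+BBR replicate 1 and 5-Fu replicate 3 was only a few counts wide. Mmp8 and Camp were the 2 of the 10 genes whose 5-Fu+BBR libraries all lay under the 5-Fu libraries, and 9.68% of all genes tested had such an order. The adjusted p of Mmp8 was 0.258 and its log2 fold change -4.03 ± 1.41. That size rests on the 18 counts of 5-Fu+BBR replicate 1, since the other two libraries of the group were at 0, and with replicate 1 alone against 5-Fu it was -2.50.

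Mmp9 encodes gelatinase B, which neutrophils store in granules and which macrophages and other cells also make (ENSMUSG00000017737, chromosome 2, 164940780 to 164955850, plus strand). It was at 7.14, 3.73 and 3.16 CPM in 5-Fu+BBR and at 2.97, 14.4 and 3.63 CPM in 5-Fu. A single library, 5-Fu replicate 2, was high, and the remaining 2 libraries of 5-Fu lay at or near the lower end of 5-Fu+BBR. The log2 fold change was -0.59 ± 0.66 (adjusted p = 0.719) and turned to 0.51 without 5-Fu replicate 2.

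Retnlg encodes resistin-like gamma, a secreted protein of mouse bone marrow and neutrophils (ENSMUSG00000022651, chromosome 16, 48872621 to 48874496, plus strand). It had 18, 0 and 0 counts in 5-Fu+BBR and 246, 115 and 11 counts in 5-Fu. In 5-Fu replicate 1 it was the most abundant of the 8 genes other than Ly6g and Cd177, at 6.32 FPKM, while in 5-Fu replicate 3 it was at 0.283 FPKM, under the 0.398 FPKM of 5-Fu+BBR replicate 1. The log2 fold change was -4.33 ± 1.61 with an adjusted p of 0.282. As for Mmp8, the size rests on the 18 counts of 5-Fu+BBR replicate 1, and it was -2.81 with that library alone against 5-Fu.

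The receptors were measured at low levels. Cxcr2 encodes the receptor for CXCL1, CXCL2 and related chemokines (ENSMUSG00000026180, chromosome 1, 74153989 to 74161246, plus strand). It had 30, 8 and 4 counts in 5-Fu+BBR and 86, 39 and 0 counts in 5-Fu, so that the group with the highest value also held the only library at 0. Its log2 fold change was -1.54 ± 1.34 with an adjusted p of 0.633. It was -0.28 without 5-Fu replicate 1, -2.68 without 5-Fu+BBR replicate 1 and -0.50 with 5-Fu+BBR replicate 1 alone. Csf3r encodes the receptor for granulocyte colony-stimulating factor (ENSMUSG00000028859, chromosome 4, 126024550 to 126044440, plus strand). It was at 4.7, 2.53 and 2.8 CPM in 5-Fu+BBR and at 4.54, 2.23 and 3.05 CPM in 5-Fu, with the groups almost superimposed. The log2 fold change of Csf3r was 0.03 ± 0.36 (adjusted p = 0.98), and its sign turned without 5-Fu+BBR replicate 1 (-0.29), 5-Fu replicate 2 (-0.18) or 5-Fu replicate 3 (-0.0071). Unlike the granule genes it had close to the same level in 5-Fu replicate 3 as in 5-Fu replicate 2.

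Ly6g and Cd177 stood far above the other 8 genes in level. Ly6g encodes a GPI-anchored protein whose antibodies are the usual stain for mouse neutrophils (ENSMUSG00000022582, chromosome 15, 75155240 to 75159126, plus strand). It was at 325, 266 and 222 FPKM in 5-Fu+BBR and at 371, 232 and 362 FPKM in 5-Fu, between rank 101 and rank 177 of all 30777 genes. The groups overlapped and the log2 fold change was -0.26 ± 0.25 with an adjusted p of 0.664. It was 0.04, of the other sign, with 5-Fu+BBR replicate 1 alone against 5-Fu.

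Cd177 encodes a GPI-anchored glycoprotein that in humans displays proteinase 3 on the neutrophil surface (ENSMUSG00000052212, chromosome 7, 24743983 to 24760311, minus strand). It was at 258, 195 and 156 FPKM in 5-Fu+BBR and at 116, 187 and 85.6 FPKM in 5-Fu. In CPM these were 901, 638 and 521 in 5-Fu+BBR and 388, 593 and 311 in 5-Fu, where 5-Fu replicate 2 lay above 5-Fu+BBR replicate 3. The means were 687 ± 195 CPM in 5-Fu+BBR and 431 ± 146 CPM in 5-Fu (SD, n = 3 each), a ratio of 1.59. The log2 fold change was 0.67 ± 0.28, and edgeR gave an adjusted p of 0.312. It was 0.43 without 5-Fu+BBR replicate 1 and 1.05 with that library alone. Cd177 was the only one of the 10 genes, besides Csf3r with its 0.03, whose log2 fold change was positive.

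**Figure D2:**
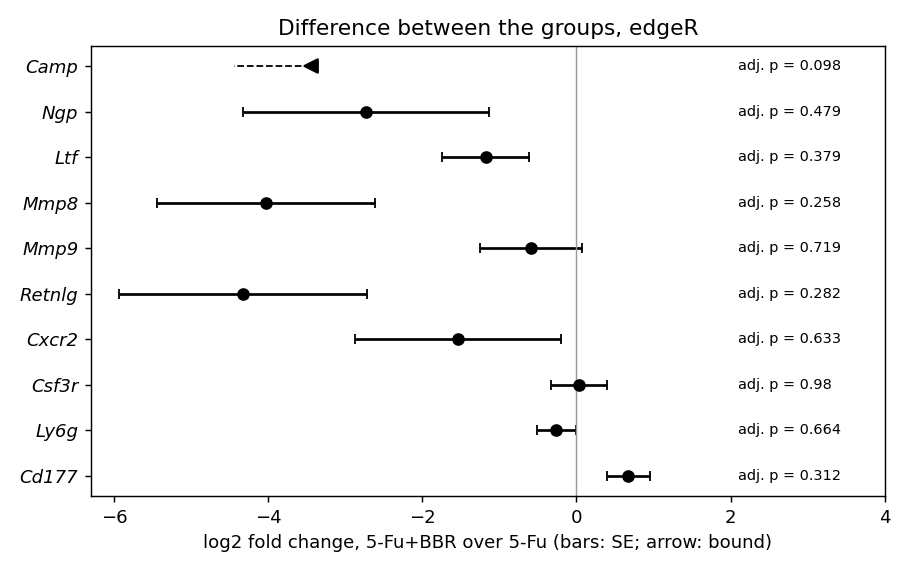
Log2 fold change of each of the 10 genes, 5-Fu+BBR over 5-Fu, with its SE as a bar and the adjusted p from edgeR at the right; Camp is drawn as a bound. The changes run from -4.33 for Retnlg to 0.67 for Cd177, and no adjusted p is under 0.05.

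The ratio of Ly6g and Cd177 to the other 8 genes varied widely between libraries. Ly6g was 48.8, 76.3 and 107 times the summed FPKM of the 8 other genes in 5-Fu+BBR replicates 1 to 3 and 19.0, 12.5 and 92.7 times in 5-Fu replicates 1 to 3. For Cd177 these ratios were 38.7, 55.8 and 75.6 in 5-Fu+BBR and 5.94, 10.1 and 21.9 in 5-Fu. In 5-Fu+BBR replicate 3, where 4 of the 8 other genes had 0 counts, Ly6g was at 222 FPKM, its lowest value, and Cd177 at 156 FPKM. Sequence shared with other genes was also measured. Of the 150-base stretches of their longest coding transcripts, 0% occurred in transcripts of other genes of GENCODE M21. Of the 50-base stretches 0.448% did for Ly6g and 5.76% for Cd177, mostly in the predicted gene Gm4763. This compares exact matches in the C57BL/6J reference, whereas the reads are from BALB/c, and Ly6 genes form a family of similar copies, so the value of Ly6g is uncertain to that extent. The cell type behind these 2 transcripts was not tested.

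Ordered by mean FPKM over the 6 libraries, Ly6g (296 FPKM) and Cd177 (166 FPKM) came first. Ly6g exceeded Cd177 in 6 of 6 libraries and Cd177 exceeded the next gene in 6 of 6. Ltf (2.51 FPKM) exceeded Ngp (1.88 FPKM) in 5 of 6 libraries. Ngp and Retnlg (1.59 FPKM) could not be ordered, each neighbour being higher in some libraries, and Retnlg exceeded Mmp9 (1.41 FPKM) in only 1 of 6. Csf3r (0.765 FPKM), Camp (0.411 FPKM), Mmp8 (0.32 FPKM) and Cxcr2 (0.131 FPKM) followed, with Camp above Mmp8 in 2 libraries and Mmp8 above Cxcr2 in 3.

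The libraries differed widely within each group. Summed over the 8 genes other than Ly6g and Cd177, the level was 6.66, 3.49 and 2.06 FPKM in 5-Fu+BBR replicates 1 to 3 and 19.5, 18.5 and 3.9 FPKM in 5-Fu replicates 1 to 3. Replicates 1 and 2 of 5-Fu were the high libraries, and 5-Fu replicate 3 lay between 5-Fu+BBR replicates 1 and 2. It was the lowest 5-Fu library for 6 of the 8 genes, and 5-Fu+BBR replicate 1 was the highest of its group for 7 of the 8. All 3 libraries of 5-Fu+BBR lay under 5-Fu replicates 1 and 2 for 6 of the 8 genes. Replicate 1 of 5-Fu+BBR, the library without raised kidney transcripts, lay within the range of the 5-Fu libraries for 5 of the 8 genes.

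The median log2 fold change of the 9 genes other than Cd177 was -1.54, and of the 8 genes without Ly6g as well it was -2.14, with Camp at its bound in both. The median over all genes tested was 0.005, and 49.3% of them had a negative log2 fold change, against 8 of the 10 genes. Camp, Ngp, Mmp8, Cxcr2 and Retnlg passed the filter largely through 5-Fu, so these medians and counts are description only. Ltf, Mmp9 and Csf3r, which reached the filter level in every library, had log2 fold changes of -1.18, -0.59 and 0.03. With 5-Fu+BBR replicate 1 alone against 5-Fu the medians were -0.58 for the 9 and -1.03 for the 8 genes, and without 5-Fu+BBR replicate 1 they were -2.68 and -3.6. The median of the 9 was -0.95 without 5-Fu replicate 1.

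**Figure D3:**
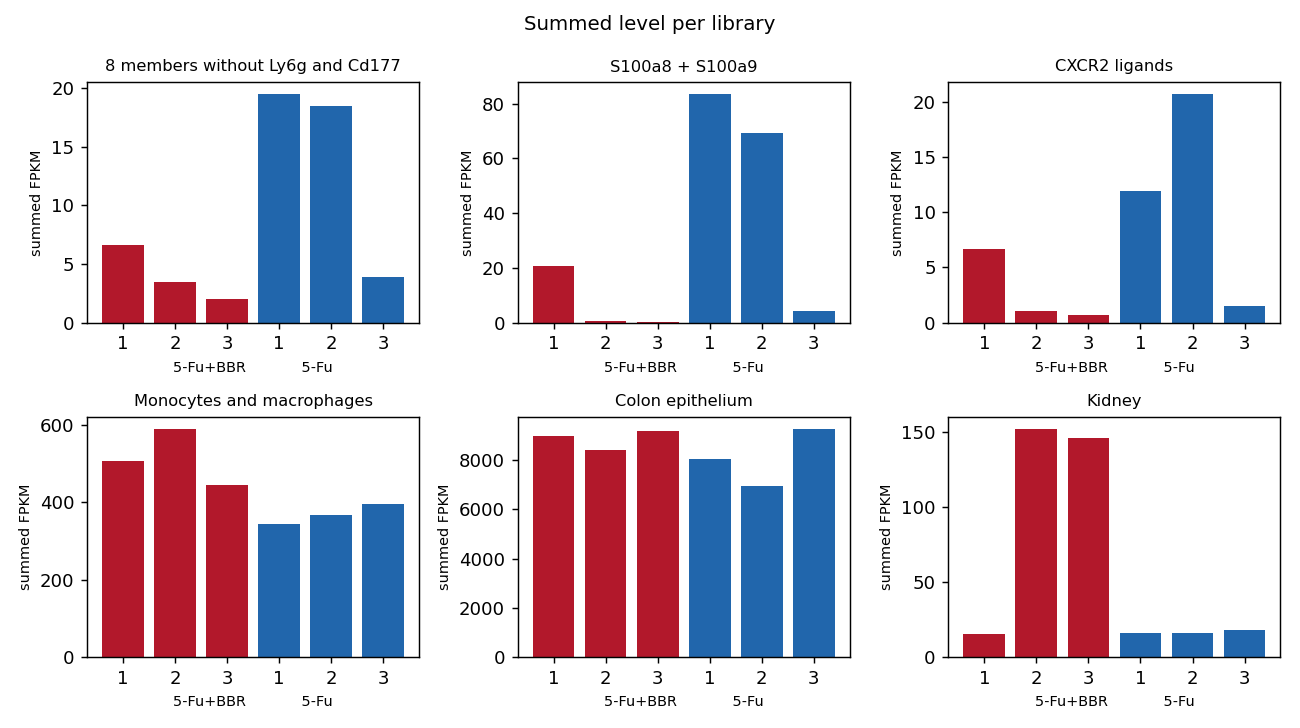
Summed FPKM in each library, 5-Fu+BBR in red and 5-Fu in blue, for the 8 genes other than Ly6g and Cd177, S100a8 with S100a9, the ligands of CXCR2, and markers of monocytes and macrophages, colon epithelium and kidney. In the first 3 panels 5-Fu replicates 1 and 2 are high and 5-Fu replicate 3 is below 5-Fu+BBR replicate 1, while the kidney sum is high in 5-Fu+BBR replicates 2 and 3.

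Of the 10 genes, which were chosen as neutrophil genes, 6 carry the Reactome annotation neutrophil degranulation in the deposited table (Camp, Ltf, Mmp8, Mmp9, Cxcr2 and Cd177). The table holds 494 genes so annotated. Of the 458 of them that were tested, 214 lay above 0 and 244 below it in log2 fold change, with a median of -0.04, and 1 passed as higher and 0 as lower. Over all genes tested, 49.3% lay below 0, and 0.0597% passed as higher and 0.0149% as lower. Camp, Ngp and Ltf lie in 1 region of chromosome 9, with 570130 bases between Camp and Ngp and 596259 between Ngp and Ltf, in which the table lists 17 and 22 other genes.

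Upstream sequence is shown for the 4 granule genes of chromosome 9, whose mean levels were lower in 5-Fu+BBR without passing the test, and for Ly6g and Cd177, the most abundant of the 10 genes. RefSeq (GRCm38.p6) had an entry for 9 of the 10 genes, Mmp9 being named only. The 250 bases before the RefSeq start were searched on both strands for TTGCNNAA, a form of the C/EBP site, and for GAGGAA, the core of a PU.1 site. No match of one overlapped a match of the other. The C/EBP letters were found for 5 of the 9 genes (Ngp, Ltf, Mmp8, Ly6g and Retnlg), against 9.56% of 32851 promoters. The PU.1 letters were found for 6 of the 9 (Ltf, Mmp8, Cxcr2, Csf3r, Ly6g and Cd177), against 23.3% of promoters. The deposited gene model began 109 bases before the RefSeq start for Csf3r, whose match lay inside it, and 161 bases before for Camp. For Ngp the model began 61 bases before, with the C/EBP match at -11 inside the model and the match at -138 outside. Ly6g was counted with either of its 2 listed starts, while the percentages are over promoter entries. Both stood together in 2.07% of promoters and in those of Ltf, Mmp8 and, at the first of its 2 listed starts, Ly6g. A match is a description of letters, not evidence of binding.

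The stretches printed are the last bases, up to 100, before both the RefSeq start and the deposited gene model, 5′ to 3′ on the strand of the gene, with motif matches in capitals. They are chr9:109849618-109849706 (minus strand) for Camp, chr9:110419647-110419746 (plus) for Ngp, chr9:111019171-111019270 (plus) for Ltf, chr9:7558329-7558428 (plus) for Mmp8, chr15:75155140-75155239 (plus) for Ly6g and chr7:24760312-24760411 (minus) for Cd177.
Camp: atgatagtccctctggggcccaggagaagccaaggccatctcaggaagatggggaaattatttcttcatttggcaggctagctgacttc
Ngp: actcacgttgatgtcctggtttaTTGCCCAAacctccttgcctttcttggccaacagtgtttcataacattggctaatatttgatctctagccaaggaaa
Ltf: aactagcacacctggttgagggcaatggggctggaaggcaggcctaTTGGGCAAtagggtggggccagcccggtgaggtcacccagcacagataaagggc
Mmp8: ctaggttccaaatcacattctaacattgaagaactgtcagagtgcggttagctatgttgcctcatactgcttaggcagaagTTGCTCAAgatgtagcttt
Ly6g: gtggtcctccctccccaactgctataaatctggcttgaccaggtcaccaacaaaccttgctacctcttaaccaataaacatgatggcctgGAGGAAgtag
Cd177: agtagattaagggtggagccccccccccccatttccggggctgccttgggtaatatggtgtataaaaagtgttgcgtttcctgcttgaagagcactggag
The capitals mark the C/EBP letters in Ngp, Ltf and Mmp8 and the PU.1 letters in Ly6g, and the stretches of Camp and Cd177 hold neither.

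Of 22 other genes of granules and secretion that were tested, 17 had negative and 5 positive log2 fold changes, with a median of -1.11 and 0 past the adjusted threshold by edgeR. Some of them were at 0 in libraries of 5-Fu+BBR and passed the filter largely through 5-Fu. These counts and the median are therefore given as description. The 4 with the smallest p went both ways. Lcn2, a siderophore-binding protein of specific granules and of inflamed epithelium, was at 3.62, 1.32 and 0.271 CPM in 5-Fu+BBR and at 9.76, 22.2 and 11.5 CPM in 5-Fu (adjusted p = 0.211). Pglyrp1, a peptidoglycan-binding protein, was at 356, 289 and 284 CPM in 5-Fu+BBR and 501, 449 and 558 CPM in 5-Fu (log2 fold change -0.70 ± 0.14, adjusted p = 0.113). Lyz2, a lysozyme that macrophages also make, was at 479, 577 and 447 CPM in 5-Fu+BBR and 262, 265 and 358 CPM in 5-Fu (adjusted p = 0.124). Cst7, an inhibitor of cysteine proteases also found in lymphocytes, was at 4.13, 5.16 and 3.7 CPM in 5-Fu+BBR and 1.42, 1.28 and 2.13 CPM in 5-Fu (adjusted p = 0.118). Elane, Prtn3 and Ctsg, the serine proteases of azurophil granules, with the stefin gene Stfa1, were too low to be tested.

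S100a8 and S100a9, the calprotectin subunits that make up much of the neutrophil cytosol, were highest in 5-Fu replicates 1 and 2. Their summed level was 20.8, 0.664 and 0.254 FPKM in 5-Fu+BBR and 83.6, 69.1 and 4.17 FPKM in 5-Fu. The adjusted p was 0.481 for S100a8 and 0.548 for S100a9.

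Surface and signalling genes of neutrophils, many of which other leukocytes share, had no common side. Of 22 tested, 10 had positive and 12 negative log2 fold changes, with a median of -0.08 and 0 past the threshold. The integrin chain Itgb2 was at 23.6, 27.5 and 25.7 CPM in 5-Fu+BBR and 13.4, 15.2 and 14.3 CPM in 5-Fu (log2 fold change 0.84 ± 0.13, adjusted p = 0.0731). Selplg, which encodes a ligand of selectins on the vessel wall, was at 11.8, 16.3 and 16.2 CPM in 5-Fu+BBR and 6.7, 8.48 and 8.41 CPM in 5-Fu (log2 fold change 0.90 ± 0.20, adjusted p = 0.121). Ltb4r1, a receptor for leukotriene B4, was at 1.5, 1.01 and 0.974 CPM in 5-Fu+BBR and 2.99, 1.83 and 2.38 CPM in 5-Fu (adjusted p = 0.217). The receptor gene Cxcr1 was too low to be tested.

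Of 6 genes of the oxidase that neutrophils share with macrophages, 4 had positive log2 fold changes, with a median of 0.89 and 0 past the threshold. Cybb, the catalytic subunit, was at 48.7, 48.3 and 36.8 CPM in 5-Fu+BBR and at 20.8, 27.3 and 23.5 CPM in 5-Fu (log2 fold change 0.90 ± 0.16, adjusted p = 0.091). Ncf1, Rac2 and Ncf4, which encode its regulators, had log2 fold changes of 1.14, 1.14 and 0.88.

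**Figure D4:**
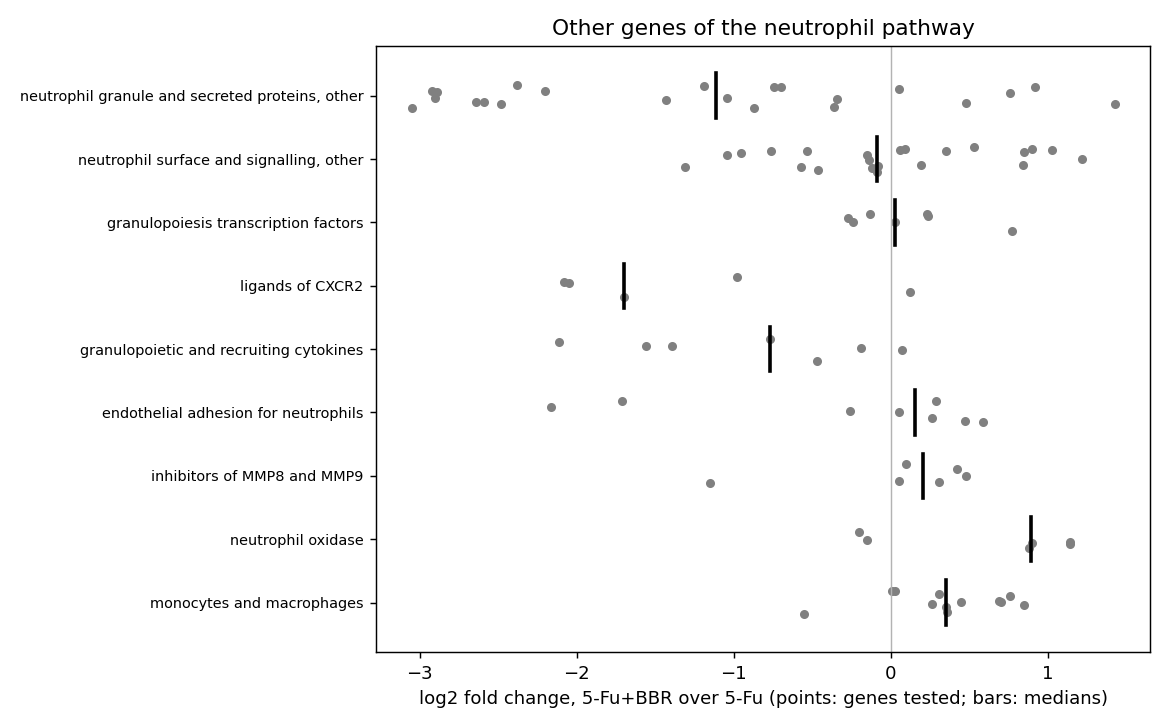
Log2 fold change, 5-Fu+BBR over 5-Fu, of the genes tested in 9 lists of the neutrophil pathway and of monocytes and macrophages, with a point for each gene and a bar for each median. Granule genes and CXCR2 ligands have medians of -1.11 and -1.7, the oxidase 0.89. Some genes of these lists, among them granule genes, CXCR2 ligands and cytokines, passed the filter largely through their level in 5-Fu.

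Of 5 ligands of CXCR2 that were tested, 4 had negative log2 fold changes, with a median of -1.7 and 0 past the threshold, and Cxcl15 was too low to be tested. Over all genes tested, 49.3% had a negative log2 fold change. Not all of the ligands reached the level of the filter in every library of 5-Fu+BBR, so their count and median are description only. Cxcl1 was at 2.15, 1.16 and 0.812 CPM in 5-Fu+BBR and at 6.25, 5.51 and 1.68 CPM in 5-Fu (log2 fold change -1.70 ± 0.56, adjusted p = 0.225). Cxcl5 was at 10.8, 0.597 and 0.595 CPM in 5-Fu+BBR and at 17.8, 31 and 1.04 CPM in 5-Fu (adjusted p = 0.585). In both, 5-Fu replicate 3 lay below 5-Fu+BBR replicate 1, as it did for the sum of the 8 genes.

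Cytokines that raise or recruit neutrophils had negative log2 fold changes for 6 of 7 tested, with a median of -0.77 and 0 past the threshold. Over all genes tested, 49.3% had a negative log2 fold change. Some of these cytokine genes were at 0 in libraries of 5-Fu+BBR and passed the filter largely through 5-Fu. Their count and median are therefore given as description. Il17a was at 0.254, 0.109 and 0 CPM in 5-Fu+BBR and 0.324, 1.18 and 0.0788 CPM in 5-Fu, levels at which few fragments were counted. Csf3, which encodes the ligand of the Csf3r receptor, and Il6 were too low to be tested. Among 8 endothelial adhesion genes the log2 fold change was positive for 5 and negative for 3 (median 0.16). P-selectin (Selp) was at 2.35, 1.23 and 0.559 CPM in 5-Fu+BBR and 4.79, 11.5 and 2.27 CPM in 5-Fu (log2 fold change -2.16 ± 0.72, adjusted p = 0.237), and Vcam1 had a log2 fold change of 0.47 ± 0.14 (adjusted p = 0.186). Of 6 genes that restrain MMP8 and MMP9, 5 had positive log2 fold changes (median 0.20). The exception, Timp1, was at 3.7, 2.7 and 3.19 CPM in 5-Fu+BBR and 4.36, 14.6 and 2.29 CPM in 5-Fu, high in the same library as Mmp9. Of 7 transcription factors of granulocyte development 4 had positive and 3 negative log2 fold changes (median 0.03). Spi1, which encodes PU.1, was at 11.5, 11.1 and 9.88 CPM in 5-Fu+BBR and 5.91, 7.79 and 5.34 CPM in 5-Fu (log2 fold change 0.77 ± 0.20, adjusted p = 0.158), and Cebpe, specific to late granulocyte development, was too low to be tested.

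Markers of other cells were measured beside these genes, and their part in the results was not tested. All 12 monocyte and macrophage markers were tested, 11 with positive log2 fold changes and a median of 0.35, and their sum was 445 to 590 FPKM in 5-Fu+BBR and 344 to 395 FPKM in 5-Fu. Lyz2, which also stands in the granule list, was at 296, 380 and 289 FPKM in 5-Fu+BBR and 169, 181 and 213 FPKM in 5-Fu. The difference in the sum rests largely on Lyz2. The colon itself was represented by 18 epithelial markers, with 13 positive and 5 negative log2 fold changes, a median of 0.11 and sums of 8400 to 9200 FPKM in 5-Fu+BBR and 6970 to 9280 FPKM in 5-Fu. T and NK cell markers summed to 16.9, 28.1 and 26.6 FPKM in 5-Fu+BBR replicates 1 to 3 and 9.01 to 11.4 FPKM in 5-Fu. B and plasma cell markers summed to 259, 563 and 545 FPKM in 5-Fu+BBR replicates 1 to 3 and 166 to 230 FPKM in 5-Fu, so that both were lowest of the group in 5-Fu+BBR replicate 1. Eosinophil and mast cell markers summed to 5.59 to 9.97 FPKM in 5-Fu+BBR and 4.23 to 5.25 FPKM in 5-Fu, with Epx, Ccr3 and Fcer1a too low to be tested. Smooth muscle markers summed to 1330, 1610 and 1470 FPKM in 5-Fu+BBR and 721 to 965 FPKM in 5-Fu, and adipocyte markers to 18.6, 35.8 and 21.1 FPKM in 5-Fu+BBR and 3.15 to 7.25 FPKM in 5-Fu. Red blood cell markers summed to 23, 73.5 and 163 FPKM in 5-Fu+BBR replicates 1 to 3 and to 11.5, 24.8 and 4.25 FPKM in 5-Fu replicates 1 to 3. Of the 6 defining neutrophil markers, 4 of which belong to the 10 genes, none was at 0 in every library, and Retnlg and Cxcr2 were at 0 in some.

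The most similar course over the 6 libraries was sought among the 13603 genes that averaged 1 CPM or more. Beside the mean of the 9 genes other than Cd177, the nearest were Adrm1, Rpusd2, S100a9, Mid1 and Pum3, with Pearson r between 0.985 and 0.994 over 6 libraries. Of these S100a9 is a neutrophil gene. Beside Cd177 they were Noc3l, C4a, Wipi1, Olfml1 and mt-Ta, with r between 0.991 and 0.998. Beside Ly6g, added after its level had been seen, they were Pgls, Rps24, Sertad1, Sarnp and Rhoa, with r between 0.969 and 0.990. With only 6 libraries and so many genes searched, r values of this size describe the course of the values and carry no test.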

How the data were processed

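RNA of whole colon was sequenced in 6 libraries, 3 per group, grouped by the sample titles. Per the submitters' processing notes, the tools were StringTie 1.3.4d, HISAT2 2.0.4, cutadapt 1.9, edgeR, UMI-tools and DESeq2, listed without their roles, and the build was GRCm38. Which annotation was used is not stated. The deposited table holds estimated counts, written by the authors as whole numbers, and FPKM computed by the authors. Among single-transcript genes above 50 counts, FPKM times transcript length, scaled per library, came within 2% of the count for 92.1% to 93.2%. Counts thus derive from coverage, and more genes stood at 4 counts than at 3 or 5, so 1 fragment is worth about 4 counts and the precision of low counts is overstated. The floor of 12 counts over a group stands for 3 fragments.

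Counts were filtered with filterByExpr (20101 of 30777 genes kept), scaled with TMM and compared in R 4.3.3 by the quasi-likelihood test of edgeR 4.0.16 (robust, two-sided), without covariates. All p-values were adjusted by Benjamini-Hochberg across the tested genes, and the biological coefficient of variation came to 0.296. CPM use the TMM-adjusted library size. The steps were tested on simulated counts in which only genes averaging 1 CPM or more were changed. That test covers neither lower genes nor counts that derive from coverage. Genes overlapping any of the 10 in GENCODE M21, whose coordinates equal those of the table for all 10, were looked for and none was found.

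The 10 genes, the 18 lists and the tests were chosen with earlier results of these data known. Named were the 10 genes, up to 4 genes per list with the smallest p, and the 5 genes most like in course. The values of 1 list gene are not reported here. List genes too low to be tested were named as well, after their values were seen. Of the list genes 1, Bpi, was not matched. S100a8, S100a9 and Lyz2 stand in 2 lists each. Alternatives were other filters, DESeq2 1.42.0 and its size factors, limma-voom (limma 3.58.1), limma-trend on log2(FPKM + 1) or log2(FPKM + 0.1), counts divided by 4, an adjusted p of 0.1, a replicate block, leaving out each library, and 5-Fu+BBR replicate 1 alone. The median without Ly6g was added after seeing the data.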

Additional observations from a re-analysis of the deposited data

How the results depend on the processing

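Under every alternative that could test them, Camp, Ngp, Ltf, Mmp8, Retnlg and Cxcr2 kept negative and Cd177 positive log2 fold changes. Leaving out single libraries moved Csf3r between -0.293 and 0.337 and Mmp9 between -1.03 and 0.506. Signs turned for Csf3r without 5-Fu+BBR replicate 1 (-0.293), 5-Fu replicate 2 (-0.178) and 5-Fu replicate 3 (-0.00708), for Mmp9 without 5-Fu replicate 2 (0.506) and with 5-Fu+BBR replicate 1 alone (0.00821), and for Ly6g with 5-Fu+BBR replicate 1 alone (0.0385); in these alternatives fewer samples entered. Of the 10 genes 0 were called higher under any alternative, and 1, Camp, was called lower without a filter, with DESeq2 and at an adjusted p of 0.1, the counts being 1, 1 and 1; the cause was not tested. Camp, Mmp8, Retnlg and Cxcr2 could not be fitted with filters on 50 counts or on FPKM or with counts divided by 4, so these settings gave no median. With the filter on FPKM, Mmp9 and Csf3r could not be fitted either. The median of the 9 genes other than Cd177 was -0.593 and of the 8 without Ly6g -0.698 with limma-trend on unfiltered log2(FPKM + 1), where the pseudocount shrinks low genes, and -0.58 for the 9 with 5-Fu+BBR replicate 1 alone. Leaving out single libraries gave -2.68 to -0.953 for the 9 and -3.6 to -1.63 for the 8.

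Over all genes, 12 were called higher and 3 lower. These counts were 64 and 13 without a filter, 839 and 261 with DESeq2, 7 and 0 with limma-trend on log2(FPKM + 0.1), 0 and 0 without a filter on FPKM, 1 lower with log2(FPKM + 1), 119 and 25 at an adjusted p of 0.1, and 0 and 0 with 5-Fu+BBR replicate 1 alone. Leaving out single libraries gave 0 to 145 higher and 0 to 15 lower. The cause was not tested. With the replicate number as a block 91 and 22 were called and 0 of the 10 genes. The labels do not say if same-numbered libraries are paired. Their deviations from the group means correlated at r = 0.058, 0.024 and 0.123, and 5-Fu+BBR replicates 1 and 2 correlated best with another number. With so few libraries these correlations cannot decide if a pairing exists. In 5-Fu+BBR, Camp, Mmp8, Retnlg and Cxcr2 had between 0 and 30 counts per library, which at about 4 counts per fragment is a handful of fragments or none.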
